A study of Macaca mulatta with 10 samples.

Results

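CXCL12 is a secreted chemokine, CXCR4 is the G-protein-coupled receptor through which it directs cell movement, and ACKR3 is an atypical receptor that binds CXCL12 and CXCL11, takes them up and lowers their amount outside the cell without classical G-protein signalling. In mouse testis, Sertoli cells are a source of CXCL12, and CXCR4 on spermatogonial stem cells helps to hold them in their niche against the tubule wall. The level of ligand available to CXCR4 is therefore set by its production, by enzymes that trim it and by ACKR3. These 3 genes were looked up by name among the 26813 loci of the deposited count table, which stand for 14102 gene symbols. CXCR4 and ACKR3 each had 1 row of exactly that name. CXCL12 had 1 row, named jointly with LOC107000110, and none of the 3 genes fell below the table's cut-off.

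The right testis of 10 juvenile wild-type rhesus monkeys (Macaca mulatta), whole and unsorted, was profiled by stranded total RNA sequencing, 1 library for each animal, and the p-values below rest on the variation from animal to animal. The 3 vehicle animals (TP07, TP09 and TP11, aged 24, 14 and 15 months) received an infusion of vehicle, and the labels do not say for how long. The 3 animals of the 48 h group (TP08, TP10 and TP12, aged 22, 14 and 15 months) and the 4 of the 96 h group (TP15 to TP18, all aged 14 months) received pulses of both gonadotropins, FSH and LH, for that time. The study asks, by its title, which genes change as undifferentiated spermatogonia commit to differentiation. The labels name no batch, but the 96 h animals carry the last numbers in the series, so that a batch following animal number and the 96 h treatment cannot be told apart. Library totals ran from 21824233 to 30375928 counts. Testis markers were present: 13 of 14 Sertoli cell markers, 8 of 8 Leydig cell markers and 11 of 12 pan germ cell markers had a row. In such bulk tissue, fewer cells of a type and less RNA per cell cannot be told apart.

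The CXCL12 locus lies on chromosome 9 from 39792488 to 39807468 of rheMac8, on the minus strand. It held 7 transcript models with 3 start sites, and its exons together covered 7888 bp. The second name in the row, LOC107000110, is a single-exon non-coding model of 2943 bp from 39792488 to 39795430. It lies wholly inside the last exon, 3183 bp long, of an annotated CXCL12 transcript on the same strand, so reads of the 2 names cannot be told apart, and the values below are those of the CXCL12 locus. CXCR4 lies on chromosome 12 from 21636323 to 21640775 on the minus strand, with 4 models and 2470 bp of exon. ACKR3 lies on the same chromosome from 119253681 to 119268300 on the plus strand, with 7 models and 4082 bp of exon. Of these models, 3 at CXCR4 and 3 at ACKR3 were assembled by the authors from their reads rather than taken from the annotation.

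In vehicle testes, CXCL12 was by far the most abundant of the 3 genes and second among the 14 chemokine ligands measured. Levels between genes were compared in CPM, a gene's share of its library's counts after TMM scaling, per kilobase of exon. CXCL12 stood at 37.3 ± 3.29 CPM per kilobase (SD, n = 3), at place 1055 of 14102 symbols. Only CCL21, a ligand of CCR7, had a higher mean among the chemokines, at 41.3 CPM per kilobase, and the ranges of these neighbours overlapped. Their order depends on the length taken. In CPM the mean of CXCL12 was 294 and that of CCL21 31.7. Per kilobase of its longest model, 6254 bp, CXCL12 stood at 44.0 in TP07, 45.4 in TP09 and 51.8 in TP11. ACKR3 stood at 6.80 ± 1.21 CPM per kilobase (SD, n = 3) and CXCR4 at 3.46 ± 0.871 CPM per kilobase (SD, n = 3). They were the highest and second highest of the 10 chemokine receptors measured, and the ranges of ACKR3 and CXCR4 did not overlap in vehicle animals. The next receptor, CXCR2, had a mean of 1.55 CPM per kilobase, with all 3 animals below the lowest CXCR4 value. CXCR4 overlapped CCL2, the next chemokine below it, at 3.10 CPM per kilobase.

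**Figure D1:**
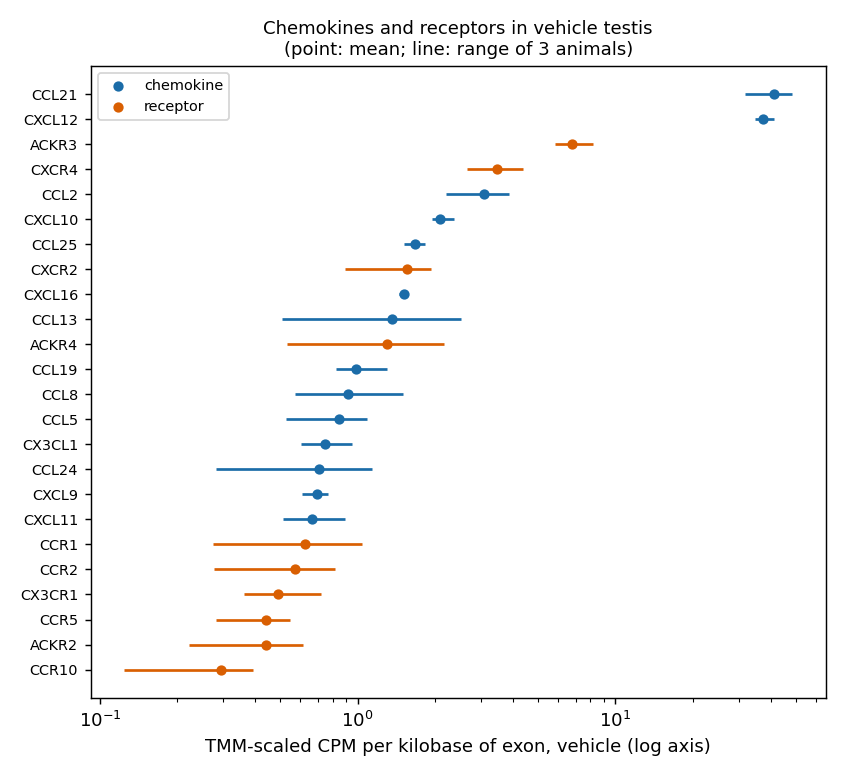
Level of each chemokine (blue) and chemokine receptor (orange) measured in vehicle testis, in TMM-scaled CPM per kilobase of exon on a log axis; points are means and lines the range of 3 animals. CCL21 and CXCL12 stand apart at the top at 41.3 and 37.3, followed by ACKR3 at 6.80 and CXCR4 at 3.46.

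ACKR3 fell after gonadotropin infusion. In the vehicle animals it stood at 33.3 CPM in TP07, 23.9 in TP09 and 26.1 in TP11. At 48 h it stood at 14.2 CPM in TP08, 13.7 in TP10 and 16.3 in TP12. At 96 h it stood at 16.2 CPM in TP15, 20.3 in TP16, 19.4 in TP17 and 18.5 in TP18. Every treated animal was below every vehicle animal, the 48 h animals were the most alike, and the 96 h values lay between the other groups with TP15 inside the 48 h range. The means were 27.7 ± 4.93 CPM (SD, n = 3) for vehicle, 14.7 ± 1.38 (SD, n = 3) at 48 h and 18.6 ± 1.76 (SD, n = 4) at 96 h.

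At 48 h ACKR3 was at 0.531 of its vehicle level (95% interval 0.422 to 0.669), a log2 fold change of -0.91 ± 0.15 (SE, adjusted p = 0.00396, edgeR quasi-likelihood test with Benjamini-Hochberg adjustment over all loci). It was the 1 of the 3 genes that passed the threshold of 0.05, against 3.67% of all loci that were called lower at 48 h. Groups that did not overlap, with treated animals lower, were found at 18% of all loci. At 96 h ACKR3 was at 0.670 of its vehicle level, a log2 fold change of -0.58 ± 0.14 (SE, 95% interval -0.88 to -0.27, adjusted p = 0.0183, edgeR). Again ACKR3 alone of the 3 passed, against 6.89% of all loci called lower at 96 h and 14.9% with treated animals wholly below vehicle. Both comparisons use the same 3 vehicle animals. From 48 h to 96 h the fitted level differed by 0.33 ± 0.14 on the log2 scale (SE, unadjusted p = 0.0375, adjusted p = 0.216, edgeR), which did not pass. None of the 3 genes passed in that comparison, in which 1.07% of all loci were called; ACKR3 was the 1 with an unadjusted p under 0.05, and exactTest, DESeq2 and voom called none of them either. The authors' deposited table gives ACKR3 a log2 fold change of -0.91 at 48 h with a false discovery rate of 0.00126, and of -0.58 at 96 h with a rate of 0.0371.

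The oldest animal, TP07, had the highest ACKR3 value. Without TP07 the log2 fold change was -0.76 at 48 h and still passed (adjusted p = 0.0146, edgeR), but at 96 h it was -0.43 and did not (adjusted p = 0.0863). Without both animals over 20 months (TP07 and TP08) it was -0.73 at 48 h (adjusted p = 0.051) and -0.43 at 96 h (adjusted p = 0.104). With age as a covariate the 96 h value was -0.47 (adjusted p = 0.0635), and with age class as a block it was -0.41 (adjusted p = 0.181), in a fit where TP09 is the only vehicle animal of the 96 h group's age. Among animals of 14 and 15 months alone, the vehicle values of 23.9 and 26.1 CPM still lay above all 6 treated values, of which the highest was 20.3.

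**Figure D2:**
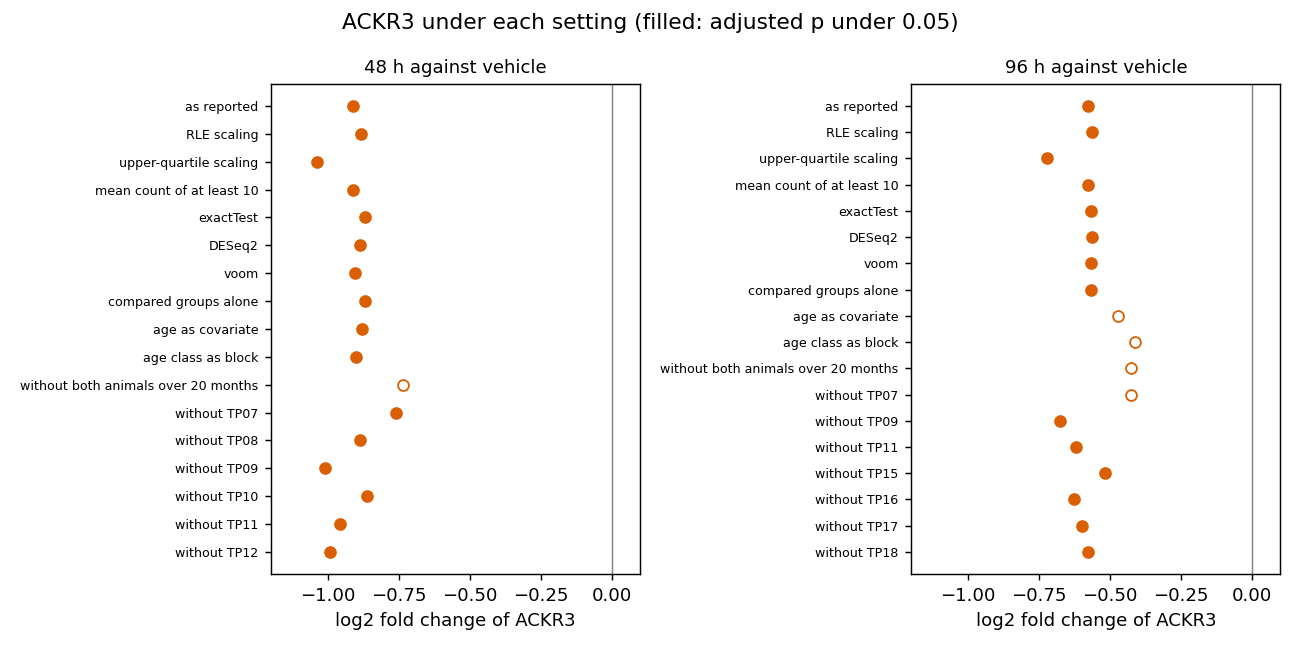
Log2 fold change of ACKR3 against vehicle at 48 h (left) and 96 h (right) as reported and under each other setting; filled points have an adjusted p under 0.05. All values lie below 0; the 48 h value loses its call in 1 setting (-0.73) and the 96 h value in 4 (-0.47 to -0.41), each involving age or TP07.

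CXCL12 itself did not pass in any comparison, and it varied between animals of the same group. The vehicle animals stood close together, at 275 CPM in TP07, 284 in TP09 and 324 in TP11. At 48 h TP10 was at 284 CPM, inside the vehicle range, while TP08 was at 182 and TP12 at 202. At 96 h TP15, TP17 and TP18 were at 311, 344 and 285 CPM, and TP16 was at 192. Thus TP08, TP12 and TP16 lay below every other animal, and each treated group had animals on both sides of that gap. The 3 low animals are aged 22, 15 and 14 months, so they are not those of 1 age. The log2 fold change was -0.40 ± 0.21 at 48 h (SE, 95% interval -0.87 to 0.07, adjusted p = 0.247, edgeR), with means of 294 ± 25.9 CPM in vehicle (SD, n = 3) and 223 ± 54.1 at 48 h (SD, n = 3). It was -0.06 ± 0.20 at 96 h (SE, adjusted p = 0.867, edgeR), with a mean of 283 ± 65.3 CPM (SD, n = 4), and 0.35 ± 0.20 between 96 h and 48 h (SE, adjusted p = 0.336, edgeR). The sign at 96 h rested on single animals: without TP16 the value was 0.08, and without TP11 it was 0.019. Leaving out TP10 gave the largest fall at 48 h, -0.62 (adjusted p = 0.0927, edgeR).

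CXCR4 was the least abundant of the 3, with 156 to 465 counts in a library, and it did not pass either. The vehicle animals stood at 8.29 CPM in TP07, 6.55 in TP09 and 10.8 in TP11. At 48 h TP08 was at 12 CPM and TP12 at 15.0, above every vehicle animal, but TP10, at 6.35, was below every one. At 96 h the values were 9.20 CPM in TP15, 5.75 in TP16, 8.86 in TP17 and 6.11 in TP18. The highest value was thus at 48 h and the lowest at 96 h, and the 3 groups overlapped. The log2 fold change was 0.38 ± 0.32 at 48 h (SE, 95% interval -0.32 to 1.08, adjusted p = 0.473, edgeR), -0.20 ± 0.30 at 96 h (SE, adjusted p = 0.674) and -0.58 ± 0.30 from 48 h to 96 h (SE, adjusted p = 0.288). Without TP10 the 48 h value was 0.66, and without TP12 it was 0.10. These intervals do not show that CXCR4 or CXCL12 stayed constant: a change of CXCR4 as large as that of ACKR3 at 48 h, in the upward direction, lies inside its interval.

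**Figure D3:**
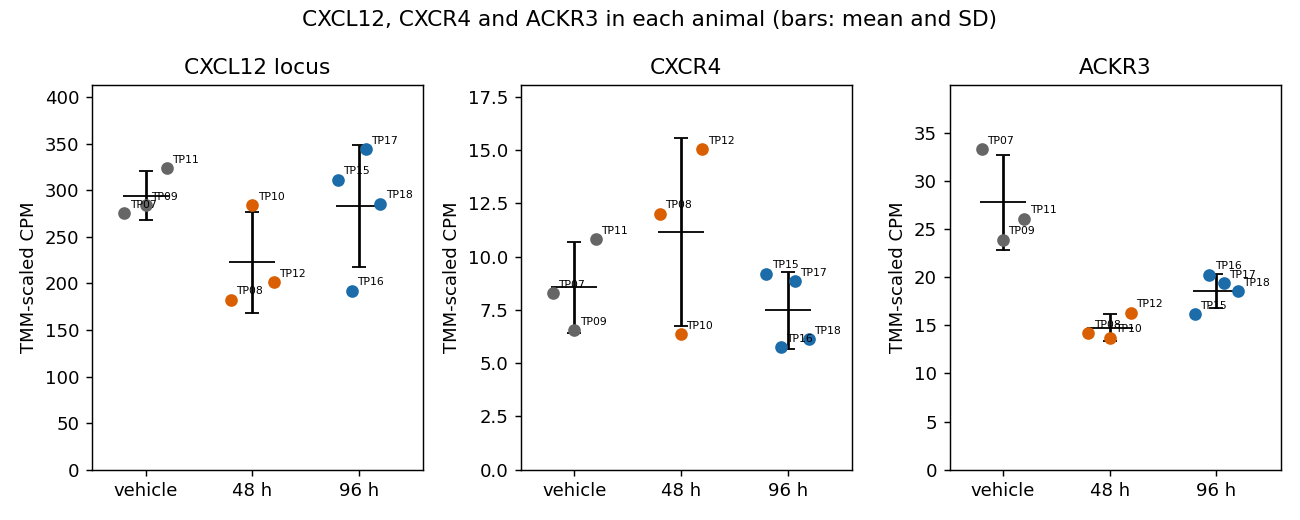
CPM of the CXCL12 locus, CXCR4 and ACKR3 in each animal by group (points, named by animal), with mean and SD as bars. The ACKR3 values of vehicle animals all lie above those of treated animals, whereas for CXCL12 and CXCR4 the 48 h animals TP08 and TP12 part from TP10 in opposite directions.

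**Figure D4:**
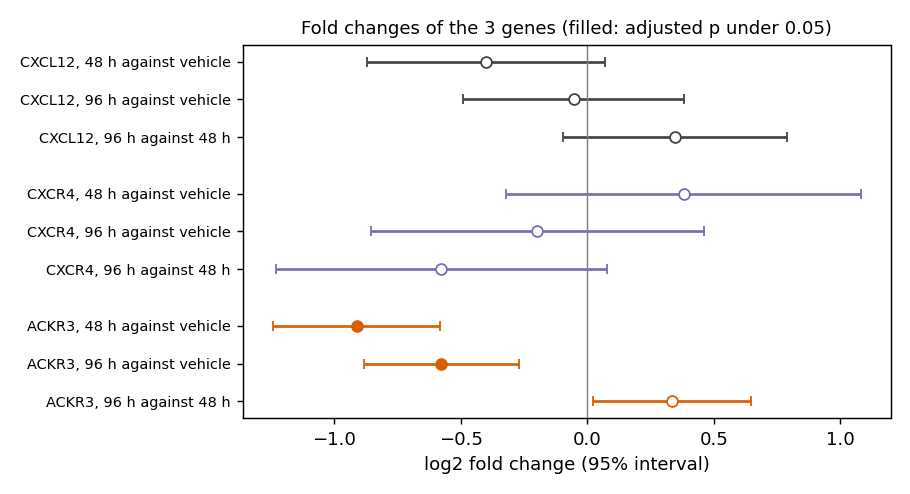
Log2 fold change of each gene in the 3 comparisons with its 95% interval; filled points have an adjusted p under 0.05. ACKR3 against vehicle is filled at both times (-0.91 and -0.58); the intervals of CXCL12 and CXCR4 cross 0.

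The balance of the 3 genes was read as ratios within each animal, per kilobase of exon. The scavenging receptor exceeded the signalling receptor in every vehicle animal, with ratios of ACKR3 to CXCR4 from 1.46 to 2.43. At 48 h this ratio ran from 0.656 to 1.31, without overlap with vehicle, and at 96 h from 1.06 to 2.13. On the log2 scale the mean ratio was 0.99 ± 0.39 in vehicle (SD, n = 3), -0.24 ± 0.54 at 48 h (SD, n = 3) and 0.62 ± 0.45 at 96 h (SD, n = 4). The difference of -1.22 between 48 h and vehicle had p = 0.1 in a two-sided exact permutation test, the smallest that 3 animals against 3 can give, and 0.411 after adjustment over the 9 ratio comparisons. The ratio of CXCL12 to CXCR4 ran from 9.37 to 13.6 in vehicle, 4.19 to 14.0 at 48 h and 10.47 to 14.6 at 96 h. The 48 h spread came from TP10 at the top, with TP08 and TP12 below every other animal. The ratio of CXCL12 to ACKR3 ran from 4.28 to 6.43 in vehicle, 6.39 to 10.7 at 48 h and 4.91 to 9.97 at 96 h. Apart from ACKR3 to CXCR4 at 48 h, the ratios overlapped in all comparisons, and no adjusted p was below 0.411.

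Few other chemokines passed the test, and CCL21, the highest in vehicle per kilobase of exon, was not among them. Of 40 chemokine ligands in a list, 13 had a row besides CXCL12. CCL2, a monocyte attractant, rose at 48 h from 0.929 ± 0.251 to 5.5 ± 2.38 CPM (SD, n = 3 in each group), a log2 fold change of 2.56 ± 0.47 (SE, adjusted p = 0.00624, edgeR). With this vehicle mean, the vehicle libraries alone do not meet the cut-off of a CPM of 1 in at least 3 libraries. The row is thus kept only through treated animals, where CCL2 is high. CCL2 was the only 1 of the 13 to pass at 48 h, against 14.5% of symbols called higher and 3.31% called lower. At 96 h only CX3CL1, the membrane-bound ligand of CX3CR1, rose, by 0.97 ± 0.26 on the log2 scale (SE, adjusted p = 0.0286, edgeR), against 17.3% of symbols called higher and 6.89% lower. The CX3CL1 call was lost without TP07 (adjusted p = 0.11), TP11 (0.0975) or TP15 (0.0596). It was also lost with age as a covariate (0.0696), with age class as a block and without both animals over 20 months (0.132). No ligand fell at either time by edgeR, exactTest, DESeq2 or voom, nor at an unadjusted p under 0.05 by edgeR, where the count was 0 of 13.

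Of the 8 other chemokine receptors measured, CXCR2 was lower at 48 h and at 96 h, and 2 receptors of myeloid cells were higher at 96 h. Over all symbols 3.31% were called lower at 48 h, and 17.3% higher and 6.89% lower at 96 h. With 8 genes, these counts do not set the receptors apart from those shares. CXCR2, a receptor of neutrophil attractants, had log2 fold changes of -1.19 ± 0.35 at 48 h (SE, adjusted p = 0.0462, edgeR) and -1.29 ± 0.32 at 96 h (SE, adjusted p = 0.0206). Its reads may be shared with the related gene CXCR1, which was not tested, so its value is uncertain. Its call was lost at 48 h without TP07 (adjusted p = 0.132), TP08 (0.16), TP10 (0.123) or TP11 (0.134), and at 96 h without TP07 (0.0834), TP11 (0.0769) or TP17 (0.0537). With age as a covariate the adjusted p of CXCR2 was 0.0619 at 48 h and 0.0643 at 96 h (edgeR). Without both animals over 20 months it was 0.319 and 0.102 (edgeR), and the 96 h call was lost with age class as a block too. CX3CR1 rose at 96 h from 1.94 ± 0.808 (SD, n = 3) to 5.91 ± 1.10 CPM (SD, n = 4), by 1.60 ± 0.30 on the log2 scale (SE, adjusted p = 0.00566, edgeR). CCR2, the receptor of CCL2, rose by 1.09 ± 0.33 (SE, adjusted p = 0.0466). That call was lost without any 1 of TP07 (adjusted p = 0.119), TP09 (0.0886), TP15 (0.0949), TP17 (0.0914) or TP18 (0.0651). It was also lost with age as a covariate (0.104), with age class as a block and without both animals over 20 months (0.147). Upper-quartile scaling (0.0692) and a fit of only the groups compared (0.0746) lost it too. Macrophage markers had a summed level of 102 to 228 CPM in vehicle, 178 to 294 at 48 h and 223 to 432 at 96 h, and both treated ranges overlapped that of vehicle. Of 11 such markers, 4 rose at 96 h, against 17.3% of all symbols, and none was at 0. That number was 8 by DESeq2, 0 with age class as a block or without both animals over 20 months, 1 with age as a covariate, 0 without TP07, TP11 or TP17, 1 without TP09 or TP15 and 7 without TP16, and the part of these cells in the receptors' values was not tested.

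MIF and HMGB1, which are no chemokines by structure but act on CXCR4 alone or together with CXCL12, were higher after treatment. MIF rose from 20.6 ± 1.85 (SD, n = 3) to 40.1 ± 4.44 CPM at 48 h (SD, n = 3), by 0.97 ± 0.13 on the log2 scale (SE, adjusted p = 0.00167, edgeR), and by 0.52 ± 0.13 at 96 h (SE, adjusted p = 0.0188). HMGB1 rose by 0.40 ± 0.11 at 48 h (SE, adjusted p = 0.0312) and by 0.63 ± 0.10 at 96 h (SE, adjusted p = 0.00251). They belong to a list of 5 other ligands of CXCR4 or ACKR3, of which the other 3 did not pass by edgeR at either time. At 48 h 2 of the 5 were lower at an unadjusted p under 0.05. Of the 5, 1 was called lower at 48 h by exactTest, by DESeq2 and, by edgeR, without TP09. The 2 that rose at each time stand against 14.5% of all symbols called higher at 48 h and 17.3% at 96 h. HMGB1 has processed copies elsewhere in primate genomes, and reads shared with those copies make its value uncertain. Whether reads of other loci add to the value of MIF was not tested. The 48 h call of HMGB1 was lost without TP07 (adjusted p = 0.0559), TP08 (0.108), TP09 (0.118), TP11 (0.0691) or TP12 (0.0865), and the 96 h call of MIF without TP07 (0.08), TP11 (0.0555) or TP17 (0.0511). Without both animals over 20 months the adjusted p was 0.158 for HMGB1 at 48 h and 0.0961 for MIF at 96 h (edgeR). Upper-quartile scaling lost the 48 h call of HMGB1 (0.0833), and age class as a block lost the 96 h call of MIF.

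Of the enzymes that cleave CXCL12, 4 of 9 had a row that could be matched by symbol. By edgeR none passed at 48 h, where 1 had an unadjusted p under 0.05 and DESeq2 called 1. The most abundant of them, MMP14, a membrane-bound matrix metalloproteinase, stood at 0.41 ± 0.25 on the log2 scale at 48 h (SE, adjusted p = 0.331, edgeR), and CPM, the gene of carboxypeptidase M, stood at 0.11 ± 0.31 (SE, adjusted p = 0.855). At 96 h MMP14 rose from 83.1 ± 21.1 (SD, n = 3) to 201 ± 60.3 in the CPM unit (SD, n = 4), a log2 fold change of 1.27 ± 0.25 (SE, adjusted p = 0.00807, edgeR), and the other 3 did not pass. Over all symbols 17.3% were called higher at 96 h. The call of MMP14 was lost with age class as a block (log2 fold change 1.09, adjusted p = 0.0782).

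Most genes that act after CXCR4 did not pass the test, and those that passed were mostly higher, as were the calls over all symbols. Of 21 of 23 signalling genes with a row, 6 rose and 1 fell at 48 h, against 14.5% of all symbols called higher and 3.31% called lower, with a median log2 fold change of 0.04 against 0.07 over all symbols. Those named by the smallest p are subunits of the G proteins that CXCR4 couples to. GNB2 rose by 0.71 ± 0.09 on the log2 scale (SE, adjusted p = 0.00118, edgeR), GNAI2 by 0.54 ± 0.08 (SE, adjusted p = 0.00206), GNG2 by 0.46 ± 0.09 (SE, adjusted p = 0.00613) and GNB1 by 0.39 ± 0.08 (SE, adjusted p = 0.0118). Without TP08, and without both animals over 20 months, 3 of the list rose at 48 h. The gene that fell, PIK3CA, which encodes a catalytic subunit of PI3-kinase and is named here after its value was seen, stood at -0.35 ± 0.10 (SE, adjusted p = 0.0419), and no gene of the list fell when any 1 animal was left out. At 96 h 5 rose and none fell by edgeR, where 1 was lower at an unadjusted p under 0.05 and 1 fell with upper-quartile scaling. DESeq2, exactTest and voom called none lower either. The share called over all symbols at 96 h was 17.3% higher and 6.89% lower. The 96 h median of the list was 0.27 against 0.08 over all symbols, and 3 rose without TP11 and 3 with upper-quartile scaling. The 5 that rose included GNB2 at 0.76 ± 0.09 (SE, adjusted p = 0.000463), GNG2 at 0.69 ± 0.08 (SE, adjusted p = 0.000516), GNAI2 at 0.46 ± 0.07 (SE, adjusted p = 0.00291) and AKT1, a kinase downstream of PI3-kinase, at 0.42 ± 0.09 (SE, adjusted p = 0.0123).

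Of 16 genes of CXCR4 desensitisation and sorting, all with a row, 1 rose at 48 h and 4 at 96 h, against 14.5% and 17.3% of all symbols called higher, so the count was below that share at 48 h and near it at 96 h. None fell by edgeR, exactTest, DESeq2 or voom, and 0 were lower at an unadjusted p under 0.05 by edgeR. RGS16, which speeds the shut-off of G-protein signals, rose at 48 h from 6.43 ± 1.99 to 17.3 ± 4.83 CPM (SD, n = 3 in each group), by 1.43 ± 0.26 on the log2 scale (SE, adjusted p = 0.00622, edgeR), and passed in all settings tried. At 96 h GRK5, a receptor kinase, rose by 0.91 ± 0.22 (SE, adjusted p = 0.0179), RGS2 by 1.10 ± 0.33 (SE, adjusted p = 0.0468), USP14, a deubiquitinase, by 0.35 ± 0.11 (SE, adjusted p = 0.047) and ARRB2, an arrestin, by 0.52 ± 0.16 (SE, adjusted p = 0.0476). The number that rose at 96 h was 0 with age as a covariate, with age class as a block, without both animals over 20 months, and without TP07 or TP11. It was 2 without TP09 and 1 without TP15 or TP17. The 96 h medians were 0.14 for this list and 0.08 for all symbols.

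Hypoxia-response genes were included because hypoxia is known to raise CXCL12, CXCR4 and ACKR3 in several cell types. Of 15, 1 rose and 2 fell at 48 h, and 2 rose and 4 fell at 96 h. NDRG1, a stress-response gene, fell by 1.09 on the log2 scale at 48 h (SE 0.20, adjusted p = 0.00586, edgeR) and by 1.07 at 96 h (SE 0.18, adjusted p = 0.00375), without overlap with vehicle. KDM3A, a histone demethylase, fell by 0.39 at 48 h (SE 0.09, adjusted p = 0.0192) and by 0.46 at 96 h (SE 0.09, adjusted p = 0.00559). PFKFB4, a regulator of glycolysis, rose by 0.88 ± 0.23 at 48 h (SE, adjusted p = 0.0304) and by 1.05 ± 0.22 at 96 h (SE, adjusted p = 0.0101), and LOX, a collagen cross-linking enzyme, by 1.57 ± 0.42 at 96 h (SE, adjusted p = 0.032). The numbers that rose stand against 14.5% of all symbols called higher at 48 h and 17.3% at 96 h, and those that fell against 3.31% and 6.89% called lower. Without both animals over 20 months none passed at 48 h in either direction, and at 96 h 1 rose and 2 fell. With age as a covariate 1 rose and 2 fell at 96 h, and with age class as a block 1 rose and 1 fell. At 48 h the number that rose was 0 without TP08, TP09 or TP11, and the number that fell was 1 without TP07, TP08, TP10 or TP11. At 96 h the number that rose was 1 without TP07, TP09, TP11, TP15 or TP17, and the number that fell was 2 without TP07, TP11, TP16 or TP17.

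In the comparison of 96 h with 48 h no gene of the 7 pathway lists passed by edgeR, against 1.71% of symbols called. The lists have 82 entries, and a gene in 2 lists has 2 entries. At an unadjusted p under 0.05, 11 genes were higher and 5 lower, and DESeq2 called 2 higher and 3 lower, exactTest 2 higher and 1 lower and voom none. The 2 most abundant members of each list, 14 genes in all, had log2 fold changes from -0.44 to 1.09, with adjusted p from 0.105 to 0.963 (edgeR).

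Markers of cell types that carry these genes in other species moved as follows. Of 18 markers of undifferentiated spermatogonia, 15 had a row (UTF1, LIN28A and SOX3 were not analysed), none was at 0, and their summed level was 477 to 526 CPM in vehicle, 324 to 365 at 48 h and 267 to 371 at 96 h. This sum lay wholly below vehicle at both times. The sums of Leydig cell markers and of peritubular and smooth muscle markers, given below, did not overlap with vehicle either, but were higher. At 48 h 1 of the 15 fell, against 3.31% of all symbols called lower. It was GFRA1, a receptor subunit for GDNF, by 1.67 on the log2 scale (SE 0.23, adjusted p = 0.00181, edgeR). At 96 h 6 of the 15 fell, against 6.89% of all symbols, with FGFR3 at -0.97 ± 0.16 (SE, adjusted p = 0.00325), GFRA1 at -1.03 ± 0.21 (SE, adjusted p = 0.00918) and MORC1 at -0.84 ± 0.20 (SE, adjusted p = 0.0181) by the smallest p. The number that fell was 2 at 48 h without TP07, and 2 at 96 h without TP07 or TP11, without both animals over 20 months, or with age as a covariate or block. Endothelial markers, 14 of 15 with a row, overlapped between groups with summed levels of 124 to 167 CPM in vehicle, 122 to 202 at 48 h and 96.4 to 199 at 96 h. Of these, FLT1 alone fell at 96 h, by 0.58 on the log2 scale (SE 0.13, adjusted p = 0.0142), and not without TP07 (adjusted p = 0.0504) or TP11 (0.054), with age class as a block (0.0967) or without both animals over 20 months (0.0603), while 2 fell without TP15.

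Sertoli cell markers summed to 2977 to 3604 CPM in vehicle, 3178 to 3818 at 48 h and 2951 to 3458 at 96 h, which overlapped, but single markers passed. Of 13, 3 rose at 48 h, and at 96 h 4 rose and 1 fell. Over all symbols 14.5% were called higher at 48 h and 17.3% at 96 h, and 3.31% and 6.89% lower, the shares against which the counts of markers below stand too. The number that rose at 96 h was 1 or 2 without any 1 animal, the number that fell was 0 without TP07, TP09, TP11, TP16, TP17 or TP18, and without both animals over 20 months 1 rose at 48 h and 2 at 96 h. Leydig cell markers summed to 218 to 365 CPM in vehicle, 1775 to 2178 at 48 h and 1292 to 1609 at 96 h, and 6 of 8 rose at each time. Pan germ cell markers, 11 of 12 with a row, summed to 581 to 778 CPM in vehicle, 402 to 594 at 48 h and 313 to 539 at 96 h. Of these 1 fell at 48 h and 6 at 96 h; the 96 h number was 2 without TP07 or TP11, 3 without TP15 or TP17 and with age as a covariate, and without both animals over 20 months it was 0 at either time, as it was at 96 h with age class as a block.

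Markers of interstitial stroma, 11 of 11 with a row, summed to 3365 to 6976 CPM in vehicle, 6444 to 11123 at 48 h and 9769 to 24699 at 96 h. Of these 2 rose at 48 h and 7 at 96 h. The 48 h number was 1 without TP07, TP10, TP11, TP12 or both animals over 20 months, and the 96 h number was 3 without TP07, TP11, TP15 or TP17 and 2 without both older animals or with age class as a block. Peritubular and smooth muscle markers, 9 of 9 with a row, summed to 742 to 855 CPM, 1060 to 1445 and 936 to 1736 in the same order. Of these 4 rose at 48 h, and 2 without any 1 animal. At 96 h 5 rose and 1 fell, and the number that rose was 1 without TP07, 2 without TP11, 3 without TP15 or TP17 and 1 without both older animals. Lymphocyte markers, 9 of 13 with a row, summed to 55.8 to 84.3 CPM, 70.5 to 77.7 and 89.3 to 105 in the same order. At 96 h 1 of them rose and 2 fell; 2 rose without TP16 or TP18, and the number that fell was 0 without TP07, TP11, TP15 or both older animals and 1 without TP09, TP16, TP17 or TP18. The part of any of these cell types in the values of CXCL12, CXCR4 or ACKR3 was not tested.

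The genes whose levels ran most like each member over the 10 libraries were taken by Pearson's r of log2 CPM, as a description with no test. The libraries share groups, depth and scaling, and genes were ranked among 13276 or 13277 candidates. For CXCL12 these were IL13RA1, a receptor subunit for interleukin 13 (r = 0.97), LVRN (0.96), SDPR, a protein of caveolae (0.96), ABCG2, an efflux transporter (0.96), and IL15, a cytokine (0.94). Within groups, where the group means are removed, their r was 0.95 to 0.98. LVRN, the gene of the membrane aminopeptidase laeverin, showed the same gap on a wider scale. It stood at 16.3 CPM in TP08, 24.6 in TP12 and 21.0 in TP16, and between 83.4 and 138 CPM in the other 7 animals. For CXCR4 the nearest were COL17A1, a collagen of hemidesmosomes (0.93), SKP1, a subunit of ubiquitin ligases (0.90), TMEM178B (0.88), SLC38A4 (0.87) and PINX1 (0.85).

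For ACKR3 they were ZNF136 (0.99), ZC3H6 (0.97), MTMR10 (0.97), PHF3 (0.96) and OTUD1 (0.95), with r of 0.74 to 0.92 within groups. OTUD1, the gene of a deubiquitinase, stood at 33.4 to 43.8 CPM in vehicle, 20.8 to 22.4 at 48 h and 22.7 to 25.8 at 96 h. These genes were chosen for their likeness, so their own differences between groups are not further evidence on ACKR3.

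**Figure D5:**
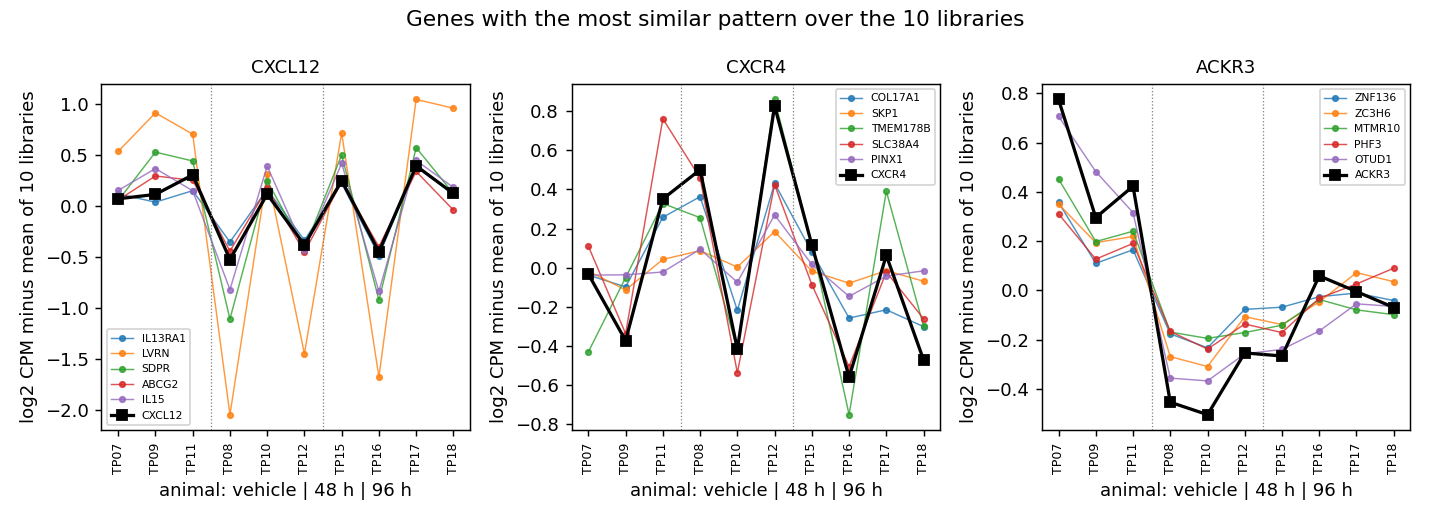
Log2 CPM of each member (black) and the 5 genes most like it (colours), each minus its mean over the 10 libraries, by animal in group order. For CXCL12, TP08, TP12 and TP16 dip together and LVRN most deeply, down to 16.3 CPM; for ACKR3 the step lies between vehicle and treated animals.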

How the data were processed

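Testes of 10 animals were compared as 3 groups. Per the submitters' processing notes, HTSeq 0.6.1p1, TopHat2 2.1.1, Cufflinks 2.2.1 and edgeR were used, with rheMac8 as the build; the role and settings of each are not given in the sources used here. The deposited table holds whole-number counts for each locus and, beside them, the authors' CPM, log2 fold changes and p-values; every one of its 26813 loci reaches a CPM of 1 in at least 3 libraries, and these hold 98.53 to 98.96% of the unfiltered total. From the counts, edgeR 4.0.16 was run here with TMM scaling and a robust quasi-likelihood fit of the 3 group means over all 10 libraries, with Benjamini-Hochberg adjustment over all loci and a threshold of 0.05. The code was tested on simulated data. SD is over animals, and SE is that of the fitted log2 fold change. Replicates of a group differed by more than sampling noise. Ratios were tested by exact permutation.

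Alternatives were RLE and upper-quartile scaling, a mean count of at least 10, edgeR's exactTest, DESeq2 1.42.0, limma 3.58.1 with voom, only the groups compared, age, and leaving out animals. Genes named from a pathway list are the up to 4 called with the smallest p, or else the 2 most abundant; cell type lists have up to 3. In the comparison of 96 h with 48 h these are given as a range. Likeness was ranked over symbols whose log2 CPM (prior count 2) averaged 0 or more. Genes of the lists were looked up by symbol, and rows joining several names were matched only where the authors assigned a single symbol. A gene counted as without a row may therefore lie in such a joined row. The members and lists were chosen with earlier results of these data known.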

Additional observations from a re-analysis of the deposited data

Results flagged for a closer look

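In the 96 h group of 4 animals, 5 of 57 genes and ratios examined had 1 animal whose gap to the nearest other exceeded Dixon's 95% critical value; chance flags about 1 in 20. TP15 was the highest animal for CX3CL1 at 6.63 CPM, for ARRB2 at 13.9 CPM and for GNB2 at 114 CPM. TP18 was the highest for KDM3A at 108 CPM. TP17 was the highest for CYP11A1, a Leydig cell steroidogenic enzyme, at 180 CPM. CXCL12, CXCR4, ACKR3 and their ratios had no such animal at 96 h, and groups of 3 were not examined.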

How the results depend on the processing

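Of 150 repeats of the members' fold changes, 140 kept their direction and side of the threshold, 5 lost the call and 5 changed sign; of 69 repeats of the ratios, 62 kept and 7 changed sign. ACKR3 lost its call without both animals over 20 months at 48 h (-0.73), and at 96 h with age as a covariate (-0.47), with age class as a block (-0.41), without both older animals (-0.43) and without TP07 (range over single animals left out -0.67 to -0.43, at 48 h -1.01 to -0.76). With age class as a block CXCR4 changed sign at 96 h against vehicle (0.36) and against 48 h (0.038). Leaving out single animals gave -0.36 to 0.0081 for CXCR4 and -0.16 to 0.084 for CXCL12 at 96 h, -0.0032 to 0.26 for the ratio of CXCL12 to CXCR4 at 96 h against vehicle, and -0.13 to 0.25 for CXCL12 to ACKR3 at 96 h against 48 h, which was -0.10 without both older animals. The gene CPM at 48 h was -0.023 with upper-quartile scaling and -0.23 to 0.31 with single animals left out. The cause of these changes was not tested.

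The loci called against vehicle at 48 h numbered 3273, but 5079 by DESeq2, 852 without both older animals and 1564 to 2776 with single animals left out. At 96 h they numbered 4684, but 3071 with age as a covariate, 1762 with age class as a block, 1941 without both older animals and 2210 to 4562 with single animals left out. Between 96 h and 48 h they numbered 286, but 707 by exactTest, 1827 by DESeq2, 178 from those groups alone, 95 with age as a covariate, 178 with age class as a block, 3 without both older animals and 2 to 373 with single animals left out. Upper-quartile scaling moved the split of higher to lower calls from 2288 and 985 to 1392 and 1732 at 48 h, and from 2836 and 1848 to 1687 and 3532 at 96 h, and the median of all loci from -0.07 to -0.20 and from -0.01 to -0.16; relative to that median ACKR3 stayed at -0.84 at 48 h and -0.57 or -0.56 at 96 h. No paired analysis was possible because each animal has its own number in the labels. Counts summed over several rows of a gene could not be tried, since each gene had 1 row. With 3 or 4 animals a group, and 156 counts in the lowest library, CXCR4 has the widest intervals.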

Other observations

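The locus nearest to ACKR3 in the table, XLOC_042520, has no gene name. It lies on chromosome 12 of rheMac8 from 119194348 to 119197364 on the plus strand, like ACKR3, 56317 bp before the start of the ACKR3 locus, and it was looked at after the values of ACKR3 were seen. It stood at 1.64 to 2.16 CPM in vehicle, 0.843 to 1.26 at 48 h and 0.911 to 1.25 at 96 h, so that every treated animal was below every vehicle animal. Treated animals were wholly below vehicle at 18% of all loci at 48 h and at 14.9% at 96 h. The other loci looked at next to CXCL12, CXCR4 and ACKR3 were not wholly below vehicle at both times. The log2 fold change of XLOC_042520 was -0.85 ± 0.26 at 48 h (SE, adjusted p = 0.0575, edgeR), which did not pass. At 96 h it was -0.83 ± 0.24 (SE, adjusted p = 0.0396, edgeR), which did. The 96 h call was lost in 10 of 17 other settings, among them without TP07 (adjusted p = 0.086), TP09 (0.0653), TP11 (0.155), TP15 (0.08), TP16 (0.0676) or TP17 (0.0949). The 48 h value passed without TP10 (adjusted p = 0.0475). The 3 vehicle libraries, where the locus is highest, are enough to carry it over the table's cut-off of a CPM of 1 in 3 libraries. The gene IQCA1 lies on the minus strand from 119016515 to 119194273, much closer to this locus than ACKR3. IQCA1 stood at -0.03 ± 0.18 on the log2 scale at 48 h (SE, adjusted p = 0.927, edgeR). At 96 h it stood at -0.03 ± 0.17 (SE, adjusted p = 0.909, edgeR). Whether the RNA of XLOC_042520 is part of an ACKR3 transcript or is tied to IQCA1 was not tested.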
